A study of Rattus norvegicus with 4 samples.

Results

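The genes described here are the protein tyrosine phosphatases and the mitogen-activated, cyclic nucleotide-dependent, AMP-activated and C-type protein kinases of the rat testis. They were chosen by name, as genes read by probe sets with a single symbol beginning with Ptpn, Ptpr, Mapk, Map2k, Map3k, Prkc, Prka or Prkg, with the leukocyte gene Ptprc left out. This gave 65 of the 4736 genes on the array, read by 116 of 7006 probe sets. The set was drawn up with earlier results of these data known. There were 28 phosphatases, 17 of them receptors (Ptpr) and 11 non-receptor enzymes (Ptpn), and 37 kinase genes. The kinase genes comprised 11 named Mapk, 4 Map2k, 5 Map3k, 6 subunits of protein kinase A, 4 subunits of the AMP-activated kinase, 6 protein kinase C genes and the cGMP-dependent kinase gene Prkg2.

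Whole testis was profiled on Affymetrix arrays in rats made deficient in vitamin A by a diet begun at 20 days of age and continued for 9 weeks. The groups were deficient testis without treatment (VAD, 0 h) and deficient testis 4, 8 and 24 h after retinol, so all the animals carried the deficiency. The sources used here do not state the strain, the dose or the number of animals. In deficient rats the tubules are known to lose most germ cells beyond spermatogonia, so the tissue differs in makeup from normal testis. Each group has 1 deposited sample, here called an array, so no difference below was tested, and a fold change has no replicate check. Values are deposited ratios per probe set, to a reference left unstated, or log2 differences between arrays of the mean log2 ratio of a gene over its probe sets.

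Tyrosine phosphorylation is set by tyrosine kinases on one side and by tyrosine phosphatases on the other. In the MAP kinase cascade a MAP3 kinase phosphorylates a MAP2 kinase, which phosphorylates a MAP kinase such as ERK, JNK or p38, and certain tyrosine phosphatases switch the MAP kinase off again. Protein kinase A is freed from its regulatory subunits by cyclic AMP, the second messenger of follicle-stimulating and luteinising hormone in Sertoli and Leydig cells. Protein kinase C answers to diacylglycerol and calcium, and the AMP-activated kinase to a low energy charge.

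The name of a gene family did not always describe the enzyme. Mapk8ip1 and Mapk8ip2 encode scaffolds that hold JNK pathway kinases and have no kinase activity. Mapkapk2 and Mapkapk3 are substrates of p38 that are kinases themselves. Ptprn and Ptprn2 encode secretory granule proteins whose phosphatase domains are inactive. The prefix Prka took in both protein kinase A and the AMP-activated kinase, which are kept apart below. A probe set named for Mapk8 and Mapk10 together was left out.

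Ptprd stood far above all the other phosphatases and kinases at 8 and 24 h after retinol. At 4 h its log2 ratio of 0.81 was the highest of the set but close to the 0.63 of Prkar2b. The rest of the set varied about as much as the array as a whole. Ptprd encodes a receptor phosphatase of the LAR type, with extracellular immunoglobulin and fibronectin repeats, known as a cell adhesion molecule and synaptic organiser. Its deposited ratio was 0.775 on the VAD array, 1.75 at 4 h, 5.26 at 8 h and 5.87 at 24 h. The 3 retinol arrays all lay above VAD, with the largest step between 4 and 8 h. Against VAD it was 2.26-fold higher at 4 h, 6.78-fold at 8 h and 7.57-fold at 24 h. Among all 4736 genes its change ranked 35 from the top at 4 h, 1 at 8 h and 2 at 24 h. Ptprd was singled out by name with earlier results of these data known. Its rank and size therefore describe the gene and are no independent support. Between retinol arrays the log2 difference was 1.58 for 8 h over 4 h (rank 3) and 0.16 for 24 h over 8 h.

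The only error to hand comes from genes with several probe sets, through how far those built on different sequences disagree. Over 1083 such genes the noise of 1 probe set was 0.42 on the log2 scale at 4 h, 0.51 at 8 h and 0.57 at 24 h. Variation among animals is no part of it. The Ptprd changes were 2.78, 5.37 and 5.14 times that noise at 4, 8 and 24 h. Ptprd was read by 1 probe set only, so no second sequence checks it. Its VAD ratio was also low, and against a ratio of 1 in place of the VAD array the log2 values were 0.81 at 4 h, 2.39 at 8 h and 2.55 at 24 h.

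In the deposited values, 3 other members passed 2-fold against VAD at any time, and all 3 were lower after retinol. Ptprv, a receptor phosphatase known as the osteotesticular phosphatase from its expression in bone and testis, had ratios of 1.14 on the VAD array, 0.808 at 4 h, 0.525 at 8 h and 0.503 at 24 h. Each later array lay below the one before it, though the last step was only -0.06 on the log2 scale. Its log2 changes were -0.49, -1.11 and -1.17, which placed it 56 from the bottom of all genes at 24 h. Prkcz, an atypical protein kinase C that acts in cell polarity and needs neither calcium nor diacylglycerol, had ratios of 1.14, 0.733, 0.707 and 0.526 at 0, 4, 8 and 24 h. Its mean log2 change of -1.12 at 24 h came from probe sets at -1.84 and -0.39, so they agreed in sign and not in size. Prkaa2, a catalytic subunit of the AMP-activated kinase, had ratios of 0.916 on the VAD array, 0.396 at 4 h, 0.701 at 8 h and 0.627 at 24 h. It was lowest at 4 h, at -1.21, and at -0.39 and -0.55 on the later arrays.

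The start regions of these 4 genes are shown because they are the members past 2-fold. Each runs from 250 bases before to 50 bases after the annotated start, 5′ to 3′ on the gene's strand, in RefSeq's sequence of build GRCr8. Capitals mark the GC box GGGCGG, the retinoid receptor hexamer AGGTCA, the cyclic AMP element core TGACG and the AP-1 motif TGANTCA, each searched on both strands with overlapping matches counted.
Ptprd upstream start, chr5:97415449-97415748, minus strand: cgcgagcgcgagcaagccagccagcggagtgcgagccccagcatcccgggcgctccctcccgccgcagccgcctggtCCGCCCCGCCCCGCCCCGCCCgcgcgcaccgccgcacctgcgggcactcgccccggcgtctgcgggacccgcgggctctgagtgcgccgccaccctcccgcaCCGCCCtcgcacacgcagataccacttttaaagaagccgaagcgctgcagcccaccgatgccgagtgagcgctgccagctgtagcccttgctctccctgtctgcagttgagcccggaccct
Ptprd downstream start, chr5:95483882-95484181, minus strand: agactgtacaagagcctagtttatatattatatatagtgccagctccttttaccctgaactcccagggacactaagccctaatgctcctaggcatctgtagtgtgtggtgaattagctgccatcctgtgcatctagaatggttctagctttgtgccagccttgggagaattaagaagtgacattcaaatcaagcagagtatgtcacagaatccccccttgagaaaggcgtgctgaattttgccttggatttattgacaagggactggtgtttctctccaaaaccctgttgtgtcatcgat
Ptprv, chr13:49120072-49120371, minus strand: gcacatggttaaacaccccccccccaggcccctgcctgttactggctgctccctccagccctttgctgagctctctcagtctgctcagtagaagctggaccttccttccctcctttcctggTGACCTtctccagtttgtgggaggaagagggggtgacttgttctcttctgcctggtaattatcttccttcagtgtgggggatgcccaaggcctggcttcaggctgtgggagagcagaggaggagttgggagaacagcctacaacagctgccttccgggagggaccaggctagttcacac
Prkcz, chr5:171212625-171212924, minus strand: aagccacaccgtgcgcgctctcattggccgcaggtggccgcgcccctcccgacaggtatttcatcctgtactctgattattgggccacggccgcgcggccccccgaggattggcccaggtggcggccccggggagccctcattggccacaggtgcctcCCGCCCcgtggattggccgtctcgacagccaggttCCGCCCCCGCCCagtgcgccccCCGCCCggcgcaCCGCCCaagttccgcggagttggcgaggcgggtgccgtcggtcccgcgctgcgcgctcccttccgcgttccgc
Prkaa2, chr5:125108275-125108574, minus strand: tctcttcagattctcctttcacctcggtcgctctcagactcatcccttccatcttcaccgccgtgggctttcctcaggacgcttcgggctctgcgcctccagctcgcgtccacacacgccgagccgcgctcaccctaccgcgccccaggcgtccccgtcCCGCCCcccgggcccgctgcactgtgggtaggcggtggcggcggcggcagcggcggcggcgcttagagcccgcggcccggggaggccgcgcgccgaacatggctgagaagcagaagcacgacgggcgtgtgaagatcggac

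The upstream Ptprd start held 5 GC boxes, 4 of them overlapping in 1 run, and 74.3% G and C, while the downstream start held none of the 4 motifs and 44.3% G and C. Ptprv was the only one of the 4 genes with an AGGTCA hexamer, 1 match, and it had no GC box. Prkcz held 5 GC boxes and Prkaa2 held 1. Start regions were found for 57 of the 65 members, 2 of which had 2 starts. The hexamer occurred in 9 of 59 member start regions (15.3%), against 13.7% of the 4191 start regions of genes on the array and 16.2% of all 33469 in the table. GC boxes occurred in 46 of 59 (78.0%), against 55.7% of those of array genes and 33.1% of all. Member start regions were also richer in G and C, at a median of 67.7% against 59.7% for array genes and 51.7% for all. The part of that composition in the GC box share was not tested. The AP-1 motif was found in 1 of 59, that of Map3k8, against 5.89% for array genes. The full cyclic AMP element TGACGTCA was found in 2, Ptprs and Ptpru, against 2.43% for array genes. Direct repeats of AGGTCA with spacers of 1, 2 or 5 bases were found in none of the 59. A match describes letters in a window and shows no binding.

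**Figure D1:**
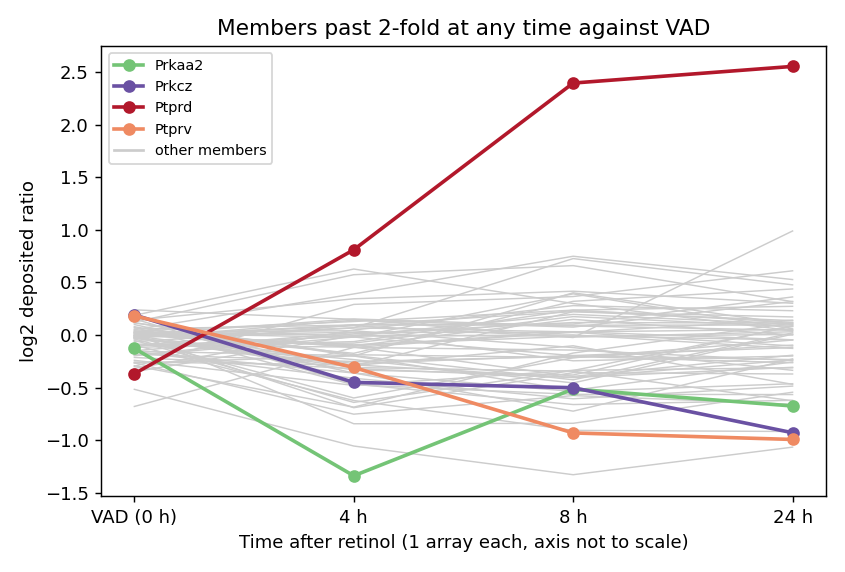
Log2 deposited ratio (vertical axis) on the VAD array and 4, 8 and 24 h after retinol (horizontal axis, 1 array each) for the 4 members past 2-fold against VAD in colour and the other 61 members in grey. Ptprd lies just above the other members at 4 h, at 0.81 beside 0.63 for Prkar2b, and reaches a log2 ratio of 2.55 at 24 h. At 24 h Ptprv, Prkcz and Prkaa2 lie among the lowest lines, although Ptprv (0.18) and Prkcz (0.19) lie above most members on the VAD array.

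In counts, 1 of 65 members passed 2-fold upwards at 4 h and 1 downwards, where 1.41% and 1.25% of all genes did. At 8 h the members' counts were again 1 higher and 1 lower, with 2.83% and 1.88% of all genes. At 24 h they were 1 higher and 2 lower, with 3.27% and 2.64% of all genes. Members past 2-fold in either direction were 3.08%, 3.08% and 4.62% at the 3 times, against 2.66%, 4.71% and 5.91% of all genes, so the share was near the background. The 3 comparisons share the VAD array. By a second measure, added after the values were seen, changes past 2 times a gene's probe set noise were counted. At 4 h 2 members were higher by that measure, Ptprd and Ptpn11, against 3.15% of all genes, and 4 were lower, Map2k2, Prkaa2, Prkcz and Ptpn6, against 2.68%. At 8 h Ptprd and Ptpn11 were again higher, against 3.25%, and Map2k2, Ptpro, Ptprv and Ptprz1 lower, against 2.45%. At 24 h Ptprd was higher, against 2.85%, and Map2k2, Prkcz and Ptprv lower, against 2.09%. At a threshold of 1.5-fold, members higher and lower numbered 2 and 6 at 4 h (6.17% and 6.63% of all genes), 7 and 9 at 8 h (8.53% and 12.3%), and 4 and 6 at 24 h (8.99% and 14.1%). By the noise measure the members' lower counts of 4, 4 and 3 genes lay above the share of all genes at each time, and the higher counts did not stand apart; none of these shares was tested.

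Members went both ways, by sizes close to those of all genes. The mean absolute log2 change was 0.29, 0.38 and 0.35 for members and 0.31, 0.38 and 0.40 for all genes. At 4, 8 and 24 h the 65 genes had a median log2 change of -0.07, -0.03 and -0.01, and all genes one of -0.09, -0.12 and -0.12. Members above VAD numbered 27, 30 and 31 of 65, or 41.5%, 46.2% and 47.7%, where 38.8%, 38.5% and 40% of all genes were above it. Such signs depend on how arrays are scaled. Bacterial control RNAs added to each hybridisation, read by 9 probe sets, had median changes of -0.55, -0.58 and -0.71. Scaling each array on its own median over these probe sets adds 0.55, 0.50 and 0.62 to every change and moves the member medians to 0.48, 0.48 and 0.61. On that scale Ptprd was at 1.73, 3.26 and 3.54, and Ptprv at 0.06, -0.61 and -0.55. Prkcz was then at -0.09, -0.19 and -0.50 and Prkaa2 at -0.66, 0.12 and 0.07, so the sign of Ptprv at 4 h and of Prkaa2 at 8 and 24 h turned. The change against VAD was larger in control probe sets at the 5′ end of actin, GAPDH and hexokinase transcripts than in those at the 3′ end, by 0.71, 1.09 and 1.01 on average. Where the members' probe sets lie along their transcripts was not analysed here, and the part of this in any change was not tested.

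**Figure D2:**
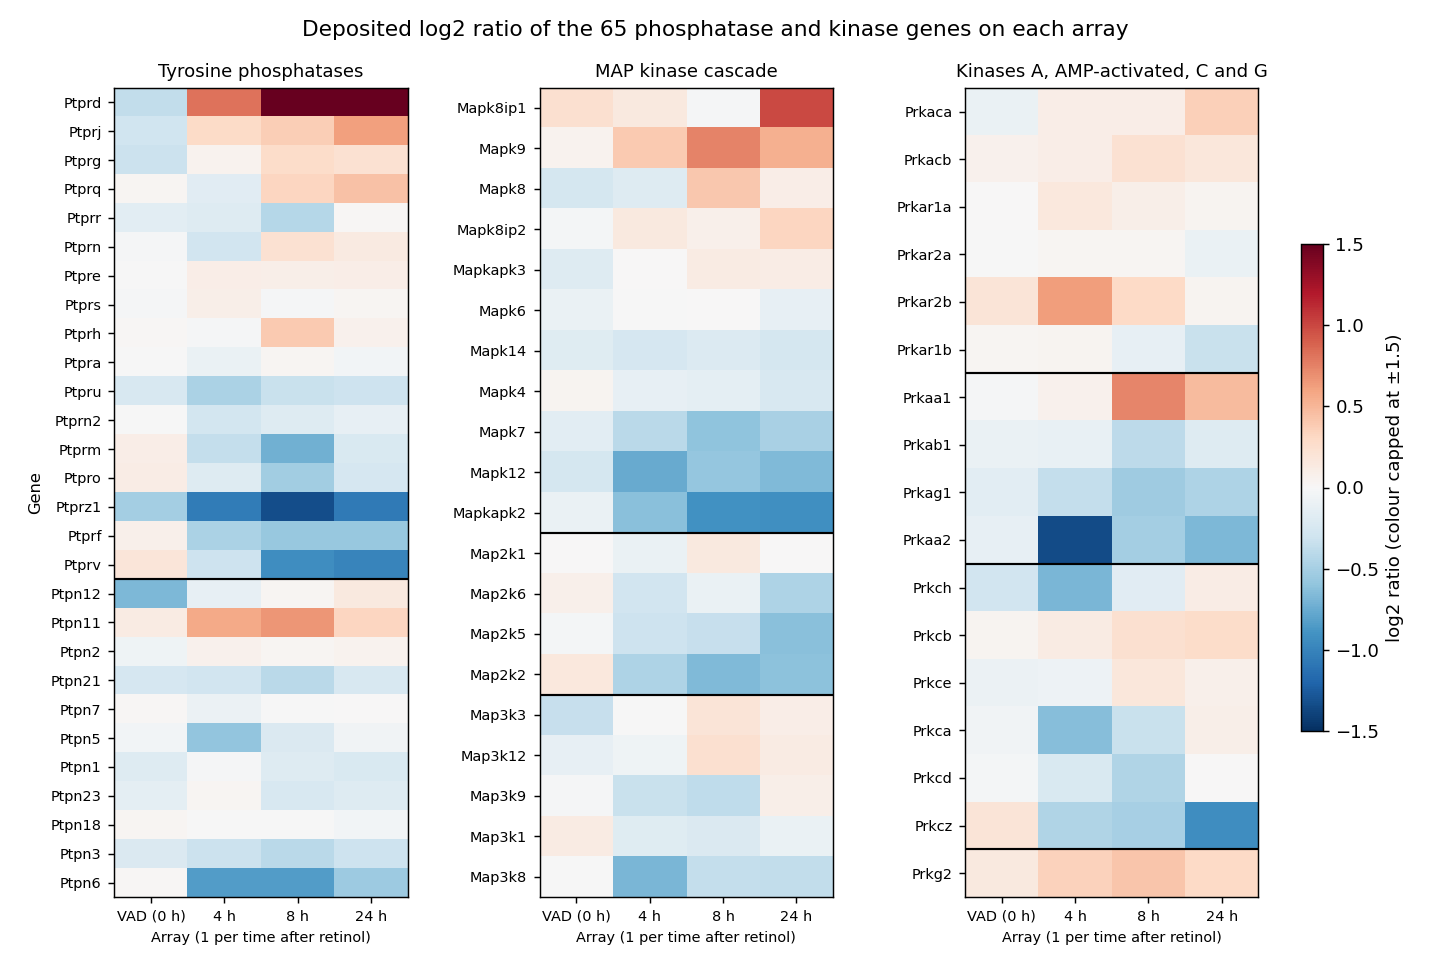
Log2 deposited ratio (colour, capped at 1.5 in either direction) of the 65 genes (rows) on the 4 arrays (columns, VAD then 4, 8 and 24 h), in 3 panels by family with black lines between families. The Ptprd row is the darkest of the high values at 8 and 24 h, and the rows for protein kinase A subunits stay mostly pale.

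Among the receptor phosphatases other than Ptprd, no probe set of its closest relatives matched its change. Ptprs and Ptprf are the other LAR-type receptors. Ptprs had ratios of 0.990, 1.06, 0.987 and 1.02 at 0, 4, 8 and 24 h, as the mean of 4 probe sets that lay on both sides of VAD, from -0.55 to 0.71 at 4 h and from -0.35 to 0.54 at 8 h. Ptprf, LAR itself, had ratios of 1.05, 0.721, 0.677 and 0.676 and log2 changes of -0.55, -0.64 and -0.64. As deposited Ptprd was thus far above VAD and Ptprf below it, with Ptprf at 0.00, -0.13 and -0.02 on the spike-in scale.

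Next to Ptprd on the high side were Ptprj, a phosphatase linked to contact inhibition of growth, and Ptprg, which carries an extracellular carbonic anhydrase-like domain. Ptprj had ratios of 0.814, 1.22, 1.29 and 1.53 and log2 changes of 0.59, 0.66 and 0.91. Ptprg had ratios of 0.803, 1.03, 1.21 and 1.17 and log2 changes of 0.36, 0.60 and 0.55. Both genes had VAD ratios well under 1, as Ptprd did, and each was read by 1 probe set. Neither passed 2-fold as deposited.

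On the low side, Ptprz1, a proteoglycan receptor phosphatase of glia and their precursors, had a ratio of 0.700 on the VAD array already and of 0.482, 0.399 and 0.478 after retinol. Its 2 probe sets read -0.57 and -0.53 at 24 h, though they lay between -0.88 and -0.19 at 4 h. Ptpro, the phosphatase of kidney podocytes, had log2 changes of -0.32, -0.64 and -0.37 as the mean of 3 probe sets. Ptprm, which binds its own kind on neighbouring cells, was at -0.46, -0.82 and -0.33 and so lowest at 8 h. The inactive granule proteins Ptprn and Ptprn2 were at 0.16 and -0.11 at 24 h. Ptprq of inner ear hair cells was at 0.41, Ptprh at 0.04, Ptpru at -0.07 and Ptpre at 0.11.

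Ptpra, which activates Src kinases by removing an inhibitory phosphate, averaged -0.04 at 24 h from probe sets that went opposite ways, at 0.54 and -0.62. The 17 receptor genes together had medians of -0.20, -0.01 and 0.04 at 4, 8 and 24 h, or -0.22, -0.05 and 0.00 without Ptprd. Their SD of 0.87 at 24 h came down to 0.49 without Ptprd, against 0.52 for all genes.

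None of the 11 non-receptor phosphatases passed 2-fold at any time. Of all genes, 2.66%, 4.71% and 5.91% did at 4, 8 and 24 h. Ptpn11 encodes SHP2, which carries signals from receptor tyrosine kinases towards Ras and MAP kinases. It had ratios of 1.09, 1.49, 1.58 and 1.25 and log2 changes of 0.45, 0.54 and 0.19 over 5 probe sets, all of which lay above VAD at 4 and 8 h. The difference of 24 h against 8 h was -0.34. Ptpn12, which acts on focal adhesion proteins, was at 0.56, 0.71 and 0.82, but its VAD ratio was the low one, at 0.625, and its ratios after retinol were 0.922, 1.02 and 1.1. Against a ratio of 1 it was therefore at -0.12, 0.03 and 0.14.

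Ptpn6 encodes SHP1, the inhibitory phosphatase of blood cells. It had ratios of 1.01, 0.558, 0.559 and 0.686 and log2 changes of -0.86, -0.86 and -0.56 from 2 probe sets of the same sequence. Ptpn7, another blood cell phosphatase, was at -0.11, -0.03 and -0.01. Beside these, 9 of the 11 leukocyte markers were measured, with medians of -0.01, -0.01 and 0.27, and at 24 h 2 were at least 2-fold higher (S100a8 and S100a9) and 1 lower (Cd52). The shares of all genes then were 3.27% higher and 2.64% lower. The protein kinase C gene Prkcb, abundant in blood cells too, was at 0.09, 0.20 and 0.24. The part of leukocytes in these values was not tested, and in whole testis fewer cells of a type and less RNA per cell cannot be told apart. Ratios hold no level, so a marker that is absent from the tissue cannot be recognised from them.

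Ptpn1 and Ptpn2 are close relatives that act on the insulin receptor and on Janus kinases, and their mean changes at 24 h were -0.04 and 0.12. The 5 Ptpn1 probe sets spread from -0.76 to 1.03 and the 2 Ptpn2 probe sets from -0.36 to 0.59. The remaining members Ptpn3, Ptpn18, Ptpn21 and Ptpn23 lay between -0.09 and 0.02 at 24 h. The family medians were -0.03, -0.03 and -0.01.

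The phosphatases that bind MAP kinases directly and switch them off are Ptpn5, Ptpn7 and Ptprr. Ptpn5 had ratios of 0.975, 0.661, 0.861 and 0.968, and so was below VAD at 4 h and back near it at 24 h. Ptprr had ratios of 0.899, 0.874, 0.745 and 1.01. With Ptpn7, the 3 genes were between -0.56 and -0.04 at 4 h and between -0.01 and 0.18 at 24 h, all inside the noise of 1 probe set by then.

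In the MAP kinase tier, the 2 JNK genes measured were the highest at 8 h. Mapk8 (JNK1) had ratios of 0.832, 0.872, 1.32 and 1.07 at 0, 4, 8 and 24 h. Mapk9 (JNK2) had ratios of 1.04, 1.31, 1.68 and 1.44 as the mean of 3 probe sets, which lay at 0.30 to 0.99 at 8 h. Both genes were highest at 8 h, with log2 changes of 0.67 and 0.70. The scaffold gene Mapk8ip1 had ratios of 1.18, 1.11, 0.984 and 1.99. Its difference of 1.01 between 24 h and 8 h made it the only member past 2-fold between those arrays, where 0.507% of all genes were that much higher. Mapk8ip2 was at 0.35 at 24 h.

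The p38 genes and their substrate kinases gave no common direction. Mapk14 (p38 alpha) had a mean of -0.08 at 24 h from 6 probe sets between -0.74 and 0.91. Mapk12 (p38 gamma) was at -0.49, -0.31 and -0.39, with both probe sets below VAD at each time. Mapkapk2 had ratios of 0.936, 0.650, 0.534 and 0.530, the lowest changes of the tier at -0.53, -0.81 and -0.82. Mapkapk3 averaged 0.30 at 24 h from 4 probe sets between -0.62 and 1.0. Of the others, Mapk7 (ERK5) was at -0.33, Mapk4 at -0.28 and Mapk6 at -0.02 at 24 h. The 11 genes had medians of -0.07, -0.02 and -0.02.

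The MAP2 kinases were the lowest family at 4 and 24 h, with medians of -0.33, -0.25 and -0.57 over 4 genes as deposited and of 0.22, 0.25 and 0.05 on the spike-in scale. Map2k2 (MEK2), which phosphorylates ERK, had ratios of 1.11 on the VAD array, 0.724 at 4 h, 0.633 at 8 h and 0.651 at 24 h. Its 3 probe sets, from 3 sequences, were at -0.57, -0.86 and -0.89 at 24 h, so all agreed in sign and lay within 0.32 of each other. With the noise of 3 sequences its changes were -2.53, -2.74 and -2.36 times the noise, and after spike-in scaling they were -0.07, -0.31 and -0.15. Its partner Map2k1 (MEK1) was at -0.11, 0.14 and 0.00, from probe sets between -0.37 and 0.21 at 24 h. Map2k5, the activator of ERK5, was at -0.28, -0.32 and -0.60 with its probe sets at -0.63 and -0.57 at 24 h. Map2k6, an activator of p38, was at -0.37, -0.18 and -0.55.

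The MAP3 kinases had medians of -0.30, -0.33 and 0.11 over 5 genes. Map3k8, an activator of MEK in inflammatory signalling, had ratios of 0.998, 0.620, 0.781 and 0.774. Map3k3 had ratios of 0.786, 0.996, 1.15 and 1.07, with the low value on the VAD array. Map3k1 was at -0.21, Map3k9 at 0.11 and Map3k12 at 0.24 at 24 h. No gene of this tier passed 2-fold against VAD, where 2.66% to 5.91% of all genes did at a given time.

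Protein kinase A subunits had medians over 6 genes of 0.09, 0.10 and -0.03 as deposited and of 0.64, 0.60 and 0.59 on the spike-in scale. At the 3 times their SD was 0.16, 0.13 and 0.28, against 0.41, 0.49 and 0.52 for all genes, and at 24 h they lay between -0.36 and 0.46. The catalytic subunit genes were Prkaca, at 0.20, 0.21 and 0.46, and Prkacb, whose mean of 0.11 at 24 h came from probe sets at 0.80 and -0.57. Prkar2b, a regulatory subunit abundant in brain and fat, had ratios of 1.14, 1.54, 1.23 and 1.03, highest at 4 h. Prkar1a, Prkar1b and Prkar2a were at 0.04, -0.36 and -0.10 at 24 h. Of 9 genes for anchoring proteins and inhibitors of this kinase, none passed 2-fold at any time against VAD. Of all genes, 2.66% to 5.91% did at a given time. But 2 of the 9 were at least 2-fold lower at 8 and 24 h than at 4 h, where 0.929% and 1.41% of all genes were. These were the sperm tail anchor gene Akap4, at 0.71, -0.54 and -0.49 against VAD, and the anchor gene Akap5, at 0.82, -0.25 and -0.24. Against 4 h they were at -1.25 and -1.07 at 8 h and at -1.20 and -1.06 at 24 h. Spermatocyte and spermatid markers, 13 of 14 measured, had medians of 0.69, -0.20 and -0.26 on the same arrays, and their part in the values of these genes was not tested.

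In the AMP-activated kinase, the 2 catalytic subunit genes lay apart against VAD but moved the same way between retinol arrays. For 8 h over 4 h they were at 0.66 (Prkaa1) and 0.82 (Prkaa2), and for 24 h over 8 h at -0.25 and -0.16. The first step was 1.99 and 2.50 times the noise of 1 probe set. The second, at -0.78 and -0.50 times, lay inside that noise. Prkaa1 had ratios of 0.986, 1.05, 1.66 and 1.39 and log2 changes of 0.09, 0.75 and 0.50, while Prkaa2 was below VAD throughout as deposited. The scaffold subunit Prkab1 was at -0.02, -0.30 and -0.10 and the nucleotide-binding subunit Prkag1 at -0.20, -0.38 and -0.30. Each of the 4 genes was read by 1 probe set.

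Protein kinase C genes other than Prkcz were higher relative to VAD at 24 h than at 4 h, whichever scale is used. As deposited, 24 h over 4 h was 0.72 for Prkca and 0.80 for Prkch, and only Prkch passed 2 times its noise. Prkcb, Prkcd and Prkce, at 0.14, 0.24 and 0.16, lay within their noise, and the probe sets of Prkcb and Prkce differed in sign. Prkca had ratios of 0.966, 0.642, 0.792 and 1.06, and Prkch of 0.817, 0.622, 0.888 and 1.08. Prkcd was at -0.20, -0.42 and 0.04. The Prkch probe sets disagreed at 24 h, at -0.23 and 1.04, and the probe sets of Prkcb (-0.76 to 0.92) and Prkce (-0.60 to 0.51) lay on both sides of VAD. Family medians were -0.30, -0.08 and 0.15 over 6 genes, or 0.25, 0.42 and 0.77 on the spike-in scale. Prkg2, the membrane-bound cGMP-dependent kinase, was at 0.20, 0.28 and 0.16.

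**Figure D3:**
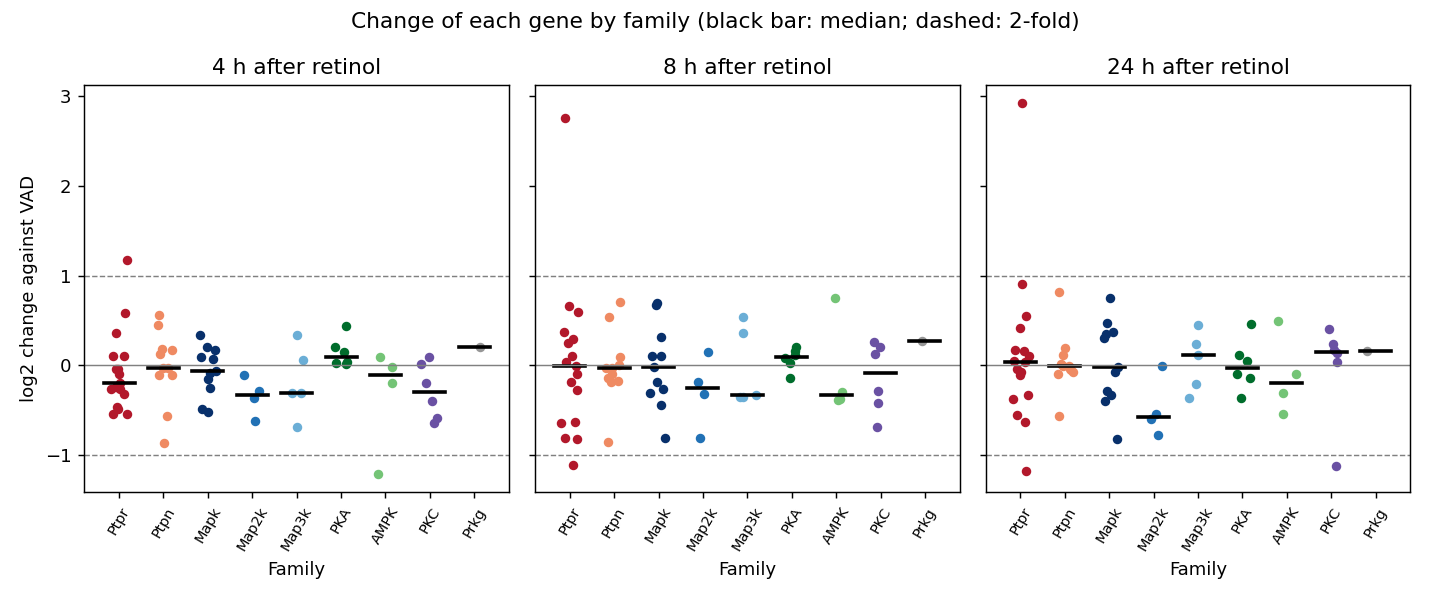
Log2 change against VAD (vertical axis) of each gene, by family (horizontal axis), at 4, 8 and 24 h. Points are genes, black bars are family medians, and dashed lines mark 2-fold. Ptprd is the single point above the upper dashed line, and the medians lie between -0.57 and 0.28.

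Phosphatases and kinases as groups were hardly apart. At 4, 8 and 24 h the median of the 28 phosphatases was -0.07, -0.03 and -0.01, and that of the 37 kinase genes was -0.07, -0.02 and 0.00. Phosphatases minus the 20 genes of the MAP kinase cascade gave 0.06, 0.15 and 0.04. By tier, the difference was 0.00, -0.01 and 0.01 from Mapk genes, 0.26, 0.22 and 0.56 from Map2k genes, and 0.23, 0.30 and -0.12 from Map3k genes. The Map2k tier gave the largest of these, over 4 genes.

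For the other kinases the difference was -0.16, -0.13 and 0.02 from protein kinase A, 0.04, 0.31 and 0.19 from the AMP-activated kinase, and 0.23, 0.05 and -0.16 from protein kinase C. From Prkg2 alone it was -0.27, -0.31 and -0.17. The spread that probe set noise gives such a difference was 0.10 to 0.13 for the MAP kinase cascade, 0.17 to 0.23 for protein kinase A, 0.22 to 0.30 for the AMP-activated kinase and 0.14 to 0.19 for protein kinase C. It was computed as for a mean over all sequences of each group. The larger error of a median and the spread between genes are left out, so it understates the error of these differences. Among these families, the differences that exceeded this spread were those from the MAP kinase cascade at 8 h, the AMP-activated kinase at 8 h and protein kinase C at 4 h. No spread was computed for the single tiers of the cascade or for Prkg2, so the larger Map2k difference was not set against one. That from the MAP kinase cascade at 8 h was 0.0151 against a ratio of 1 in place of VAD, and that from protein kinase C at 4 h was -0.0118 among genes with a VAD ratio within 10% of 1. As means, the 8 h differences were 0.08 from the MAP kinase cascade and 0.09 from the AMP-activated kinase, or -0.02 and -0.01 without Ptprd. The difference from protein kinase C had opposite signs at 4 and 24 h. Leaving out Ptprd changed none of these differences of medians by more than the noise, although the difference of means from all kinases at 24 h was 0.13 with it and 0.03 without it.

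**Figure D4:**
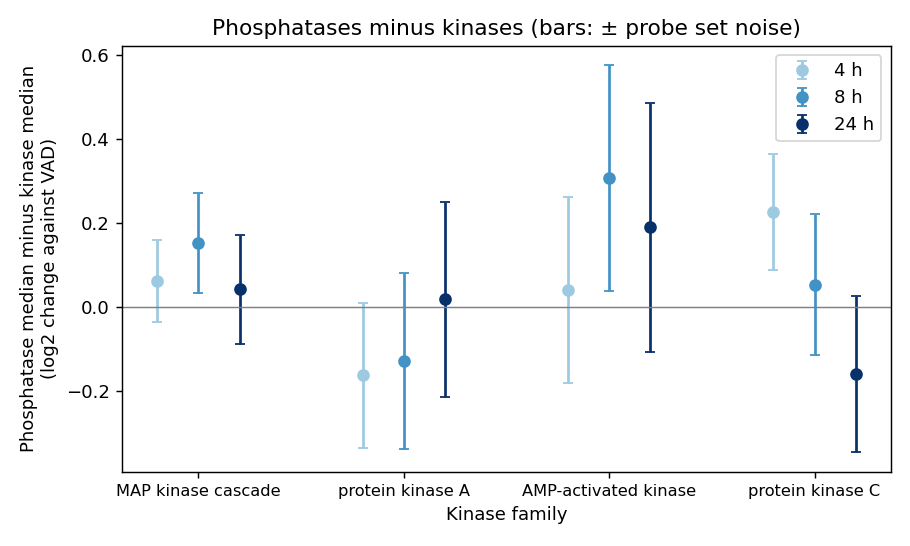
Median log2 change of the 28 phosphatases minus that of each kinase family (vertical axis) at 4, 8 and 24 h against VAD, with bars of plus and minus the spread given by probe set noise. The bars are computed as for a mean and leave out the spread between genes. Values lie between -0.16 and 0.31, and 3 of the 12 bars do not reach 0.

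Between retinol arrays, 1 member was at least 2-fold higher at 8 h than at 4 h, where 0.718% of all genes were, and this was Ptprd. No member was 2-fold lower, where 0.929% of all genes were. At 24 h against 8 h the single call was Mapk8ip1, and no member was lower by that much, where 0.655% of all genes were. At 24 h against 4 h Ptprd was the only member past 2-fold (1.74), with 1.06% of all genes higher and 1.41% lower. Phosphatases were above the 8 h array at 24 h in 19 of 28 genes and kinases in 13 of 37, where 49.9% of all genes were, and the medians were 0.05 and -0.06. Cell type markers also differed between these arrays. All 13 measured spermatocyte and spermatid markers were lower at 8 h than at 4 h, with a median of -1.08 and 7 past 2-fold. Leydig markers, 7 of 9 measured, had medians of 0.19, 0.12 and -0.59 at 4, 8 and 24 h against VAD, with 3 past 2-fold downwards and 1 upwards at 24 h. For Sertoli markers, 12 of 16 measured, the medians were 0.21, 0.05 and 0.04, with 3 past 2-fold upwards at 24 h. The part of these cells in the members' values was not tested.

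How far probe sets of a gene agreed limits these values. Of the 65 members 36 had 1 probe set, and 29 had 2 or more. In 17 of the 29 the probe sets lay on both sides of VAD at 24 h (58.6%, against 50.4% of all genes with 2 or more). In 8 they did so while more than 1 log2 unit apart, namely Mapk14, Mapkapk3, Prkacb, Prkcb, Prkce, Prkch, Ptpn1 and Ptpra (27.6%, against 18.5% of all such genes). For no member did probe sets from 2 different sequences pass 2-fold in the same direction. The position of a gene's mean near VAD thus often averaged probe sets that differed.

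**Figure D5:**
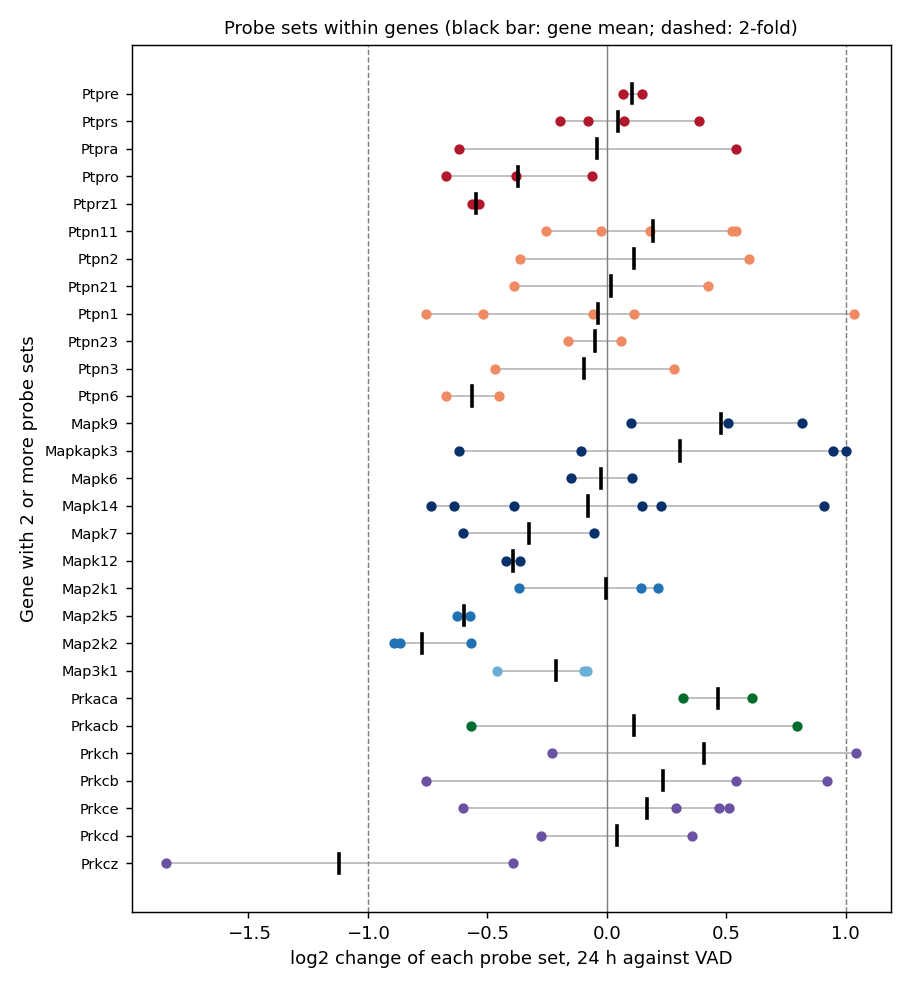
Log2 change at 24 h against VAD (horizontal axis) of each probe set (points) for the 29 members with 2 or more (rows), with the gene mean as a black bar and 2-fold as dashed lines. Map2k2, Map2k5, Mapk12 and Ptprz1 have probe sets close together, while those of Ptpn1 run from -0.76 to 1.03 and those of Mapk14 from -0.74 to 0.91.

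The deposited VAD value also enters each change. Of the members 18 had a VAD ratio more than 10% under 1, 41 were within 10% and 6 were more than 10% over. The 24 h log2 ratio itself had a median of -0.11, 0.00 and -0.29 in these classes, against -0.23, -0.14 and 0.10 for all genes. At 24 h 4 of the 5 highest changes, those of Ptprd, Ptprj, Ptpn12 and Ptprg, came from the first class, and the 2 lowest, of Ptprv and Prkcz, from the last. No member with a VAD ratio within 10% of 1 passed 2-fold, apart from Prkaa2 at 4 h.

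The origin of the probe sequence went with the values as well. At 24 h the 36 member probe sets from expressed sequence tags had a median of -0.19 and the 80 from other database sequences of -0.02, while over all genes the medians were -0.28 and -0.02. Its part in single genes was not tested.

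Around these families, the rest of the phosphorylation machinery was measured from lists that were drawn up with earlier results of these data known. Of the 5 dual-specificity phosphatases, which remove both phosphates from MAP kinases, Dusp1 was at least 2-fold higher at each time, with ratios of 0.912, 2.38, 2.24 and 2.01. Of all genes, 1.41%, 2.83% and 3.27% were that much higher at 4, 8 and 24 h. Dusp6, which acts on ERK, was at -0.36, 0.34 and 0.62. The other 3, Dusp4, Dusp5 and Dusp7, lay between -0.33 and 0.17 at 24 h. The list medians were -0.08, 0.12 and 0.17.

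The tyrosine kinases had higher medians than the phosphatases on the later arrays. Medians were 0.10, 0.14 and 0.22 for the 26 receptor tyrosine kinases measured, and the 13 non-receptor tyrosine kinases gave -0.05, 0.14 and 0.26. At 24 h Met and Kit were 2-fold higher (1.07 and 1.01) and Kdr, the vascular endothelial growth factor receptor, was lower (-1.35). The cytokine receptor kinase Jak1 had ratios of 0.969, 1.90, 2.35 and 2.59, the single non-receptor kinase past 2-fold. It passed at 8 and 24 h, when 2.83% and 3.27% of all genes were that much higher. Kdr is also in the endothelial list, whose 4 measured genes of 7 had medians of -0.25, 0.06 and 0.07.

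Further down, the 6 Ras and Raf pathway genes measured had medians of -0.01, 0.01 and 0.02 with none past 2-fold. Of all genes, 2.66% to 5.91% were past it at a given time. The 13 measured targets of MAP kinases had medians of 0.00 at each time, and the transcription factor gene Atf2 was the only one past 2-fold, at 1.05 at 24 h. By then 3.27% of all genes were at least 2-fold higher. The 29 genes of serine and threonine phosphatases had medians of -0.04, -0.09 and -0.11, with the calcineurin subunit gene Ppp3r1 higher (1.51) and the regulatory subunit gene Ppp1r16b lower (-1.49) at 24 h. These 2 calls stood beside 3.27% of all genes 2-fold higher and 2.64% lower at that time. Among 11 measured partners of the LAR-type receptors none passed 2-fold at any time, again beside 2.66% to 5.91% of all genes. The receptor kinase gene Ntrk3, which binds LAR-type phosphatases, had ratios of 1.17, 1.43, 1.76 and 1.81, and the glypican gene Gpc1 had ratios of 1.01, 0.639, 0.559 and 0.605. The partner list had medians of -0.10, -0.03 and 0.04, and its highest gene at 24 h was Ntrk3, at 0.63.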

How the data were processed

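Whole rat testis was measured on an Affymetrix array, 1 deposited sample per group. The values deposited by the authors are linear ratios per probe set. GCOS and MAS5 are named in the submitters' processing notes; the sources used here do not state the step to ratios, their reference, pooling or scaling. No signal level was kept, so depth and detection are unknown.

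Of 8799 probe sets, 7006 carried 1 gene symbol in the platform annotation, 308 several and 1426 none listed. All 116 member probe sets matched the RefSeq gene table (GRCr8), and no symbol changed. Ratios were put on the log2 scale without a pseudocount, averaged over the probe sets of a gene and subtracted between arrays (Python 3.11.15, numpy 2.4.6, pandas 2.3.3). With 1 array per group no test exists, and genes were counted past 2-fold. Noise is the SD of the difference between changes of 2 probe sets of a gene from different sequences, over the square root of 2; a gene's noise is divided by the square root of its number of sequences. The procedure was tested on simulated data.

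The members and lists were chosen with earlier results of these data known. The genes to name were Ptprd, members past 2-fold against VAD, the 3 highest and 3 lowest of each family at 24 h, and those with probe sets on opposite sides more than 1 log2 unit apart; the text names others beside them, chosen after their values were seen. Alternatives covered the choice of probe set, scaling, the VAD value, a pseudocount, the fold threshold and scaffold genes.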

Additional observations from a re-analysis of the deposited data

How the results depend on the processing

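No paired analysis was possible because each group has 1 array. Every limit below holds for 1 array per time, and no value has a replicate check. Ptprd at 8 and 24 h stayed past 2-fold under every alternative that kept it, while at 4 h it was at 0.81 against a ratio of 1. Of the genes past 2-fold, none turned its sign at that time under the alternatives computed gene by gene. Ptprv at 8 h was at -0.93 against a ratio of 1, -0.98 with a pseudocount and -0.998 after centring, and at 24 h at -0.99 against a ratio of 1. Prkcz at 24 h was at -0.93 against a ratio of 1, -0.97 with a pseudocount and -0.39 with the probe set of highest mean ratio. All these fell short of 2-fold. The probe set of highest mean ratio is picked on the ratios of all 4 arrays, retinol arrays included. That choice itself favours probe sets that are higher after retinol. A filter on low values could not be run on ratios, and no member of the AMP-activated kinase had 2 or more probe sets, so that difference has no value there. Leaving out the scaffold genes, or taking the median over probe sets, moved no count, and no median or difference by more than the noise.

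Counts of members past the threshold, higher and lower, were 1 and 1 at 4 h, 1 and 1 at 8 h, and 1 and 2 at 24 h. A 1.5-fold threshold gave 2 and 6, 7 and 9, and 4 and 6. Taking for each gene its probe set of highest mean ratio gave 2 lower at 4 h, 3 higher at 8 h, and 3 higher and 1 lower at 24 h, where 1.33%, 5.15%, 6% and 2.49% of all genes were. That choice favours higher counts by the way it is made. With the mean over probe sets, 2.83% and 3.27% of all genes were higher at 8 and 24 h. Members with 2 or more probe sets gave 0 and 0 at 4 and 8 h and 0 and 1 at 24 h, since Ptprd has 1, where 0.256% to 1.92% of all such genes were. Members with a VAD ratio within 10% of 1 gave 0 higher at 4 h and 0 and 0 at 8 and 24 h, where 0.691% to 1.74% of all such genes were. Centring on all genes gave 0 lower at 8 h (1.22% of all genes) and 2 higher at 24 h (4.29%), and a pseudocount of 0.1 gave 0 lower at 8 h (1.08%) and 1 at 24 h (1.37%). Spike-in scaling gave 3, 9 and 11 higher and 0 lower at the 3 times, where 9.42%, 10.3% and 15.7% of all genes were higher and 0.232%, 0.317% and 0.274% lower. Against a ratio of 1 there were 0 higher and 2 lower at 4 h (2.17% and 1.92% of all genes) and 1 lower at 24 h (3.65%). Without Ptprd, an alternative chosen after seeing the data, there were 0 higher at each time.

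The median of all members at 4, 8 and 24 h was -0.016, 0.0301 and 0.11 with the highest probe set, a choice that favours higher values. It was 0.0271, 0.0886 and 0.11 after centring, and 0.48, 0.48 and 0.61 on the spike-ins. Against a ratio of 1 it was -0.12 at 4 h and -0.10 at 8 h. Phosphatases minus the MAP kinase cascade became 0.32 at 8 h with the highest probe set, 0.22 at 4 h with 2 or more probe sets, and 0.0151 at 8 h against a ratio of 1. With 2 or more probe sets the difference from protein kinase C was -0.17 at 8 h and that from protein kinase A -0.33 at 24 h. With a VAD ratio within 10% of 1 the difference from protein kinase C at 4 h was -0.0118.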
